A study of Rattus norvegicus with 6 samples.

Results

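The genes of the unfolded protein response and the heat shock response were examined in metrial gland of pregnant rats kept at low oxygen. A list of 36 genes was used: chaperones of the endoplasmic reticulum (ER), stress sensors and their targets, genes of ER-associated degradation (ERAD), and cytosolic and mitochondrial heat shock proteins. Each gene was represented by its brightest probe set (highest mean across the 6 arrays) among those annotated to that gene alone. This gave values for 32 of the 36 genes, out of 14217 genes with such a probe set on the array. All 32 passed the filter on dim probe sets. Hspa1b, Hspa8 and Hsp90aa1 were covered only by probe sets annotated to a second gene as well, which are described apart and enter no count, and Ern1 was not measured here.

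Proteins that enter the ER are folded there by chaperones and disulfide isomerases, and misfolded ones are sent back to the cytosol for degradation. When folding falls behind, the membrane sensors ATF6, IRE1 and PERK raise chaperone and ERAD genes through ATF6 and XBP1, and raise amino acid and stress genes through ATF4. In the cytosol and the mitochondria a separate program, driven by heat shock factors, raises the heat shock proteins. The metrial gland, the uterine wall behind the rat placenta, holds secretory decidual cells, granulated natural killer cells and invading trophoblast, all cells that load the ER with secreted protein.

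The hypoxia group comprised 3 arrays from pregnant rats kept at 10.5% oxygen, gestation days 6.5 to 13.5, and the normoxia group 3 arrays from pregnant rats in ambient air, at 21% oxygen, over the same days. No strain, genotype or further treatment is stated in the labels. Whether each array holds a different animal is not stated either, and the p-values therefore reflect only how far these samples scatter, which could be technical scatter. Total RNA of whole tissue was measured, and fewer cells of a type and less RNA per cell cannot be told apart in such samples.

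Arrays within a group correlated at 0.989 to 0.993 and arrays of different groups at 0.974 to 0.983 over the 18625 probe sets tested. Values are log2 expression values as deposited, and differences are hypoxia minus normoxia with their standard error (SE). As a guide to background, 27 bacterial control probe sets reached at most 5.0 on any array, and the lowest value of any of the 32 genes was 6.0. Of the natural killer markers that define this tissue, Prf1 (perforin) averaged 13.37 ± 0.08 in hypoxia and 13.64 ± 0.17 in normoxia and Gzmb (granzyme B) 14.27 ± 0.10 in hypoxia and 14.47 ± 0.05 in normoxia (SD, n = 3 each), whereas Gzma lay at bacterial control level on all arrays. Among the 8 natural killer markers that passed the filter on dim probe sets, 7 had differences below 0 and 1 above. RNA quality was read from the beta-actin controls, whose 3' probe set exceeded the 5' one by 0.58, 0.77 and 0.66 in hypoxia and 0.53, 0.54 and 0.41 in normoxia. The groups did not overlap in it. The same difference for the GAPDH controls was -0.04, 0.06 and -0.01 in hypoxia and -0.05, -0.01 and -0.05 in normoxia, and there the groups overlapped. The part of RNA quality in the results below was not tested.

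The promoters of 4 genes are shown because they carry the element through which ATF6 and XBP1 act, while the genes themselves did not move alike. Each line gives the 250 bases before a RefSeq gene start (assembly GRCr8), 5′ to 3′ on the gene's strand. Capitals mark matches to the ER stress element (Hsp90b1 and Hspa5) or to its second form (Hyou1 and Herpud1). Hyou1 lies at chr8:53602632-53602881 (plus strand), Hsp90b1 at chr7:23012294-23012543 (minus strand), Hspa5 at chr3:38452766-38453015 (plus strand) and Herpud1 at chr19:10614708-10614957 (minus strand).
Hyou1: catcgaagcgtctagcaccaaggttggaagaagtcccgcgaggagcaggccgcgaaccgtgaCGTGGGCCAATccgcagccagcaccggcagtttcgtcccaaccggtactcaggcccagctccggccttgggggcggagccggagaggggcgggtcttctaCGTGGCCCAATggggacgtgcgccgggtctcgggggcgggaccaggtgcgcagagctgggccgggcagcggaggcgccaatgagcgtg
Hsp90b1: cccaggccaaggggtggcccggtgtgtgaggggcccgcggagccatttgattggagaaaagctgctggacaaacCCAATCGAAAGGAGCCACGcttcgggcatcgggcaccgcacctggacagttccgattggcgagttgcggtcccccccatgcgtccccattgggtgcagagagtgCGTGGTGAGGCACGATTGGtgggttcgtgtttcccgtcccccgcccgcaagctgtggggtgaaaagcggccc
Hspa5: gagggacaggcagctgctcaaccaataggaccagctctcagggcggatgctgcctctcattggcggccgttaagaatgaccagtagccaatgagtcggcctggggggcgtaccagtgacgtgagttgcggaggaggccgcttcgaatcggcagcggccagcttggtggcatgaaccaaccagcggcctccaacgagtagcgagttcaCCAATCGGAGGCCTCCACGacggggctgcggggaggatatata
Herpud1: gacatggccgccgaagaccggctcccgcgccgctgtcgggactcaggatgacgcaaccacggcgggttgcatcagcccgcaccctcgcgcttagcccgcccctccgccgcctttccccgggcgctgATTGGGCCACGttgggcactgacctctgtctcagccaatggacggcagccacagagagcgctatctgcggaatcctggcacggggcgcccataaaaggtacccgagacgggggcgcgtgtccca

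RefSeq promoter windows, from 250 bases before to 50 after the start, were found for 28 of the 36 genes. Those without one were Pdia3, Pdia6, Manf, Atf6, Ern1, Derl1, Hspa1b and Hsp90aa1. There were 33469 windows for 27457 genes in all, so some genes have more than 1, and a share of windows is not a share of genes. All motifs were searched on both strands. The ER stress element, CCAAT and CCACG with any 9 bases between, was matched in 7 of the 28 genes (Hspa5, Hsp90b1, Calr, Canx, Dnajc3, Creld2 and Xbp1) and in 0.0657% of the 33469 windows in the table. Its second form, ATTGG and CCACG with any 1 base between, was matched in Hyou1, Dnajb11 and Herpud1 and in 0.0508% of all windows. Hsp90b1 held 2 matches of the first form, at bases -176 to -158 and -72 to -54 from the start, and Hyou1 held 2 of the second, at -188 to -178 and -88 to -78. The window of another RefSeq start of Hyou1, with its upstream bases at chr8:53602822-53603071, held 0 matches of either form. A match is a description of the letters and not a site shown to be bound.

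The 2 genes that rose were ER chaperones and the 1 that fell belongs to ERAD. Hyou1 and Hsp90b1 were higher in hypoxia, Herpud1 was lower, and the other 29 of the 32 genes did not pass (limma, Benjamini-Hochberg adjusted p under 0.05 over all probe sets tested). Over all 10546 genes measured, each by its brightest probe set, 4.48% were called higher, 2.23% lower and 6.7% in either direction. With 3 of 32 called, the share lay near this background and is not a result about these genes. At an unadjusted p under 0.05 the count was 15 of the 32, beside 24.7% of all genes. The median difference of the 32 was 0.047, and that of all genes 0.0082.

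Median differences varied from branch to branch. The 14 ER chaperones had a median difference of 0.162, and 8 of them were higher on every hypoxia array than on any normoxia array. Across all genes 16.8% were higher without overlap of the groups and 14.7% were lower without overlap. Median differences were -0.011 for the 6 PERK-ATF4 genes, -0.095 for the 5 ERAD genes and -0.082 for the 5 heat shock genes, of which 4 were lower without overlap. For Dnajb1 and Hspd1 among those 4 the gap was only 0.01. These medians are descriptions and were not tested against each other.

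**Figure D1:**
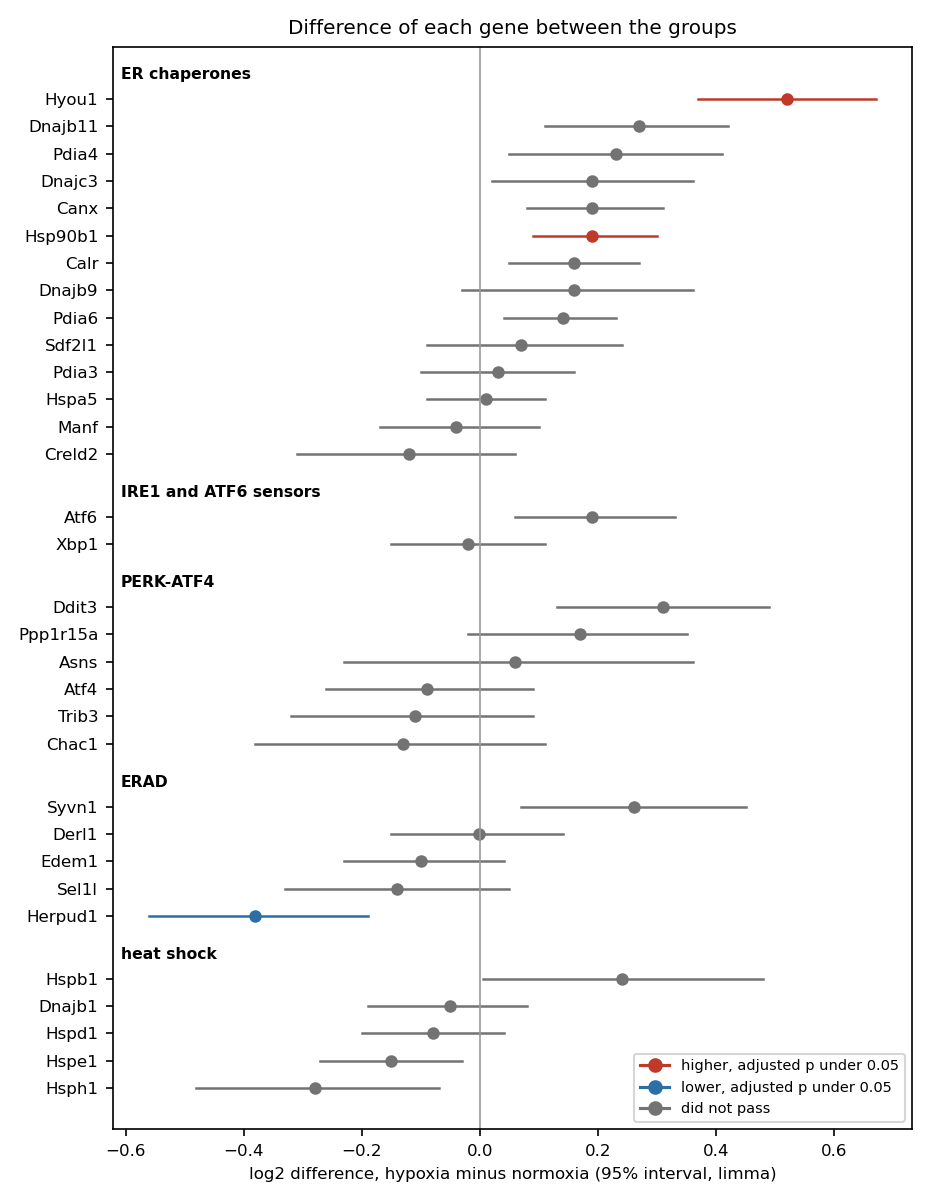
Log2 difference of each of the 32 genes, hypoxia minus normoxia, with its 95% interval from limma, grouped by branch. Hyou1 (0.52) and Hsp90b1 (0.19) are the 2 called higher and Herpud1 (-0.38) is the 1 called lower, and most ER chaperones lie right of 0.

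Among the ER chaperones, Hyou1, which encodes a large ER-resident relative of the Hspa chaperones that acts as a nucleotide exchange factor for BiP, differed most. It stood at 10.23, 10.34 and 10.24 on the hypoxia arrays, against 9.75, 9.68 and 9.81 on the normoxia arrays. The lowest hypoxia array lay 0.41 above the highest normoxia array. The rise was 0.52 (SE 0.065, 95% interval 0.37 to 0.67) and amounted to 1.43-fold (limma adjusted p = 0.00779). It kept its call under all 16 alternatives, with differences from 0.48 to 0.55 and adjusted p from 0.00507 to 0.0353. A second, dimmer probe set of Hyou1 rose too, by 0.44 (SE 0.075, adjusted p = 0.0203).

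Hsp90b1 encodes Grp94, the ER member of the Hsp90 family, and had values of 13.12, 13.10 and 13.05 in hypoxia and 12.88, 12.95 and 12.86 in normoxia. The groups lay close but did not overlap, and the rise was 0.19 (SE 0.045), which is 1.14-fold (limma adjusted p = 0.0484). This call was lost without any 1 of the 6 arrays (adjusted p 0.0574 to 0.155), with no filter (0.062), with quantile normalization (0.108) and without a variance trend (0.132).

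The lectin chaperones of glycoproteins, Canx and Calr, were close to the threshold. Canx stood at 12.12, 12.04 and 12.07 in hypoxia and 11.84, 11.90 and 11.91 in normoxia, a difference of 0.19 (SE 0.049, adjusted p = 0.0608). Calr stood at 12.62, 12.66 and 12.58 in hypoxia and 12.42, 12.48 and 12.47 in normoxia, a difference of 0.16 (SE 0.047, adjusted p = 0.0849). Neither passed, though the groups did not overlap in either gene. A second probe set of Canx gave the same 0.19 and the dimmest gave -0.07, also without passing. Canx passed with array weights (adjusted p = 0.0403), and Calr under none of the alternatives.

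Cochaperones and isomerases gave differences of similar size without a call. Dnajb11, an ER cochaperone of BiP, stood at 10.13, 10.02 and 9.94 in hypoxia and 9.82, 9.74 and 9.73 in normoxia (difference 0.27, SE 0.069, adjusted p = 0.0622), and passed with array weights (0.0365). The disulfide isomerase Pdia4 stood at 11.37, 11.40 and 11.13 in hypoxia and 11.11, 11.05 and 11.06 in normoxia. Its difference was 0.23 (SE 0.077, adjusted p = 0.125) and did not pass. Hypoxia replicate 3 lay far below the other hypoxia arrays for Pdia4, and without it the difference was 0.31 and passed (adjusted p = 0.0293). Pdia4 passed under no other alternative. Without any other single array its adjusted p was 0.207 to 0.29. Pdia6, another isomerase, differed by 0.14 (SE 0.041) and Dnajc3, a cochaperone that also restrains PERK, by 0.19 (SE 0.072). In both the groups did not overlap and the test did not pass.

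Hspa5 encodes BiP, the most widely used marker of the unfolded protein response. Its values were 12.94, 12.96 and 12.88 in hypoxia and 12.94, 12.91 and 12.90 in normoxia. The groups overlapped, at a difference of 0.01 (95% interval -0.09 to 0.11), and its promoter, printed above, holds 1 match to the ER stress element. Further chaperones and secreted ER proteins with overlapping groups were Dnajb9 (0.16), Sdf2l1 (0.07), Pdia3 (0.03), Manf (-0.04) and Creld2 (-0.12). The probe sets of Pdia3, a glycoprotein disulfide isomerase, disagreed. The bright one did not pass, and a dimmer one, at 7.64, 7.68 and 7.55 in hypoxia and 7.28, 7.21 and 7.16 in normoxia, was called higher by 0.41 (SE 0.08, adjusted p = 0.0304).

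**Figure D2:**
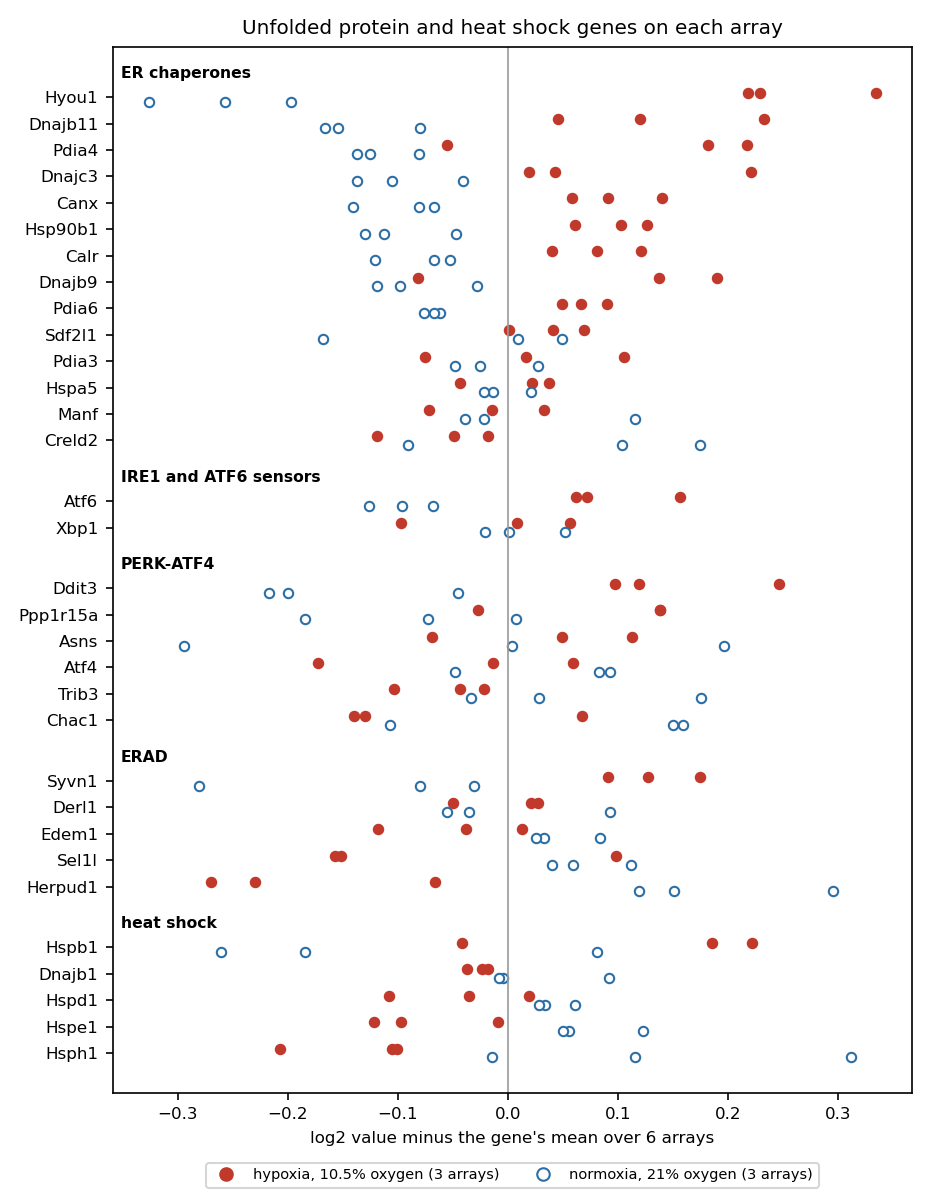
Log2 value of each of the 32 genes on each array minus the gene's mean over the 6 arrays, with hypoxia as filled and normoxia as open circles, 3 arrays each. Filled and open circles separate for Hyou1 and 7 further ER chaperones, mix for Hspa5 and Atf4, and separate the other way for Herpud1, Hsph1 and Hspe1.

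Array by array, the ER chaperones split by group. Counted against each gene's own mean over the 6 arrays, 13, 11 and 9 of the 14 chaperones lay above it on hypoxia arrays 1, 2 and 3, against 4, 0 and 3 on normoxia arrays 1, 2 and 3. The median deviation was 0.097, 0.062 and 0.044 in hypoxia and -0.071, -0.074 and -0.072 in normoxia. For the PERK-ATF4 genes the same counts were 4, 3 and 2 of 6 in hypoxia and 4, 1 and 4 in normoxia, with no split by group. Such counts restate, on the same arrays, the differences given above and add no separate support. Genes are not replicates, and the same count over all genes is not given here.

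Of the transcription factors at the head of the response, Atf6, the membrane-bound factor cut free under stress, stood at 10.29, 10.21 and 10.20 in hypoxia and 10.01, 10.04 and 10.07 in normoxia. The groups did not overlap, and the difference of 0.19 (SE 0.058, adjusted p = 0.0911) did not pass. A dimmer probe set of Atf6 differed by 0.14 (SE 0.1), and there the groups overlapped. Xbp1, whose messenger RNA is spliced by IRE1, stood at 11.58, 11.53 and 11.42 in hypoxia and 11.50, 11.57 and 11.52 in normoxia (difference -0.02, 95% interval -0.15 to 0.11). These overlapped. The array value is a total over Xbp1 transcripts, so the share that IRE1 had spliced was not measured.

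No gene of the PERK-ATF4 branch passed. Ddit3, which encodes the factor CHOP, came closest, at 9.33, 9.20 and 9.18 in hypoxia and 9.04, 8.88 and 8.87 in normoxia. Every hypoxia array was above every normoxia array, with a difference of 0.31 (SE 0.077, adjusted p = 0.058). It passed with array weights (0.032) and with the lowest 60% of probe sets left out (0.0494). Ppp1r15a, the phosphatase subunit that ends the translational arrest, stood at 9.63, 9.63 and 9.46 in hypoxia and 9.50, 9.31 and 9.42 in normoxia (difference 0.17, SE 0.079), and its groups overlapped. Atf4 itself stood at 11.37, 11.14 and 11.30 in hypoxia and 11.39, 11.26 and 11.40 in normoxia (difference -0.09, 95% interval -0.26 to 0.09). ATF4 is controlled mainly through translation, which these arrays do not measure.

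Targets of ATF4 stood on both sides of 0. Asns, the asparagine synthetase, differed by 0.06 (SE 0.13), Trib3, a pseudokinase that restrains the response, by -0.11 (SE 0.089) and Chac1, a glutathione-degrading enzyme, by -0.13 (SE 0.11). All 3 had overlapping groups. So did a dimmer probe set of Trib3, which differed by -0.26 (SE 0.14) without passing. The amino acid response motif TGATGNAA, which ATF4 can bind with partners, was matched in the promoter windows of Chac1, Trib3 and Herpud1 and in 3.98% of all windows. All 3 of those genes had differences below 0, and 1 of them, Herpud1, was called.

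In ERAD, Herpud1 fell. It encodes an ER membrane protein that helps assemble the degradation complex around Hrd1, and it is itself a target of the unfolded protein response. The values were 9.69, 9.49 and 9.53 in hypoxia, against 9.88, 9.91 and 10.05 in normoxia. The highest hypoxia array lay 0.18 below the lowest normoxia array. The gene fell by 0.38 on the log2 scale (SE 0.08, 95% interval -0.56 to -0.19), with a limma adjusted p of 0.038. The call held without hypoxia replicate 1 (0.0488) and was lost without any other 1 array (0.0685 to 0.124) or without a variance trend (0.054). Its promoter holds 1 match to the second form of the ER stress element, at -124 to -114, the form that Hyou1 also carries.

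The other ERAD genes did not pass. Syvn1, the ubiquitin ligase Hrd1, stood at 9.18, 9.21 and 9.26 in hypoxia and 9.01, 8.80 and 9.05 in normoxia (difference 0.26, SE 0.081, adjusted p = 0.102), with no overlap. Sel1l, the partner of Hrd1, differed in the other direction, by -0.14 (SE 0.084), and its groups overlapped. Derl1, a channel component, differed by -0.002 (95% interval -0.15 to 0.14). Edem1, a mannosidase that marks misfolded glycoproteins, differed by -0.10 (SE 0.056), and a second probe set by -0.23 (SE 0.059, adjusted p = 0.059), with lower values in hypoxia on both and no call. The dimmest probe set of Edem1 differed by -0.08 (SE 0.084).

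Of the 10 genes with either ER stress element in the promoter window, 2 were called higher (Hyou1 and Hsp90b1), 1 lower (Herpud1) and 7 not called, beside 6.7% of all genes called in either direction. Their differences ran from -0.38 to 0.52, with 7 above 0 and 3 below.

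**Figure D3:**
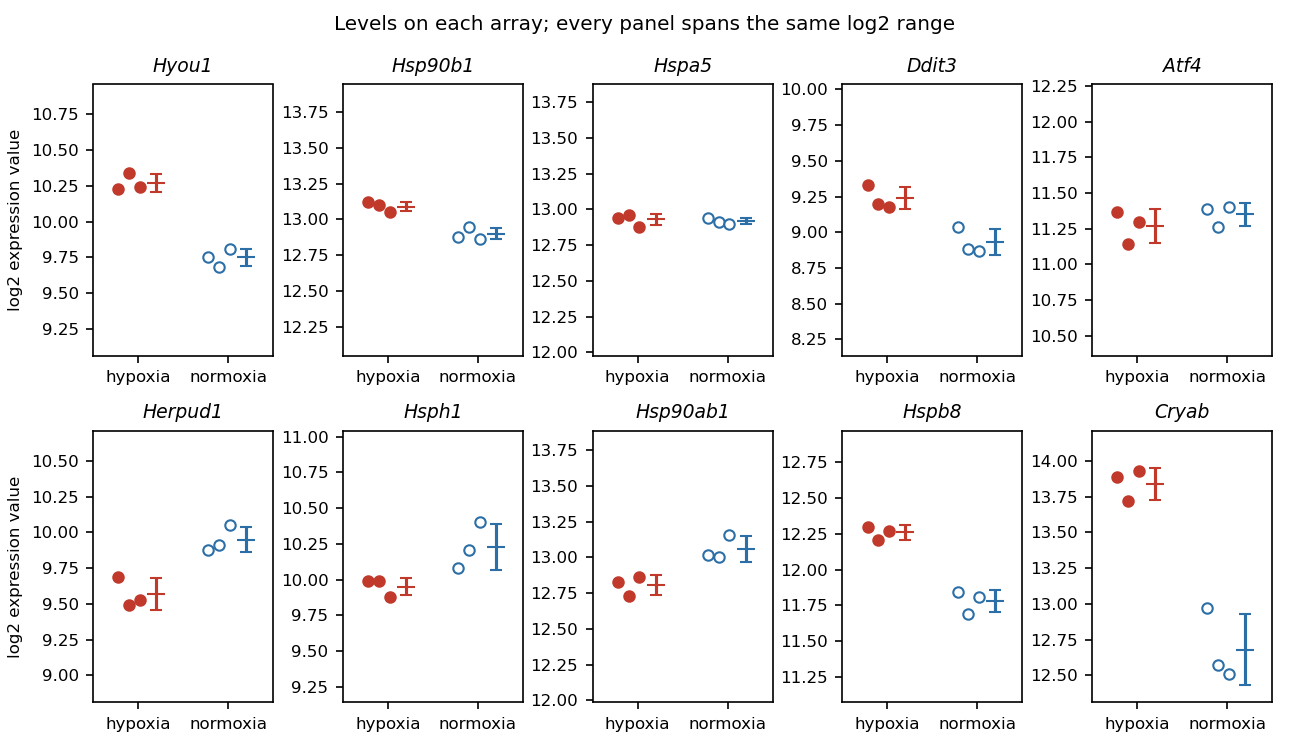
Log2 expression value on each array for 7 of the listed genes and for Hsp90ab1, Hspb8 and Cryab, with hypoxia left and normoxia right, and the mean with SD (n = 3) beside the points. Hyou1, Hspb8 and Cryab are higher in hypoxia with a gap between the groups, Herpud1 and Hsp90ab1 are lower, and Hspa5 and Atf4 overlap.

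Heat shock genes had 0 calls among the 5 measured, and 3 had an unadjusted p under 0.05 by the same limma fit, beside 24.7% of all genes. Of these 3, Hsph1 and Hspe1 were lower and Hspb1 was higher. Hsph1, a large cytosolic chaperone that recharges the Hspa proteins, stood at 9.99, 9.99 and 9.88 in hypoxia and 10.08, 10.21 and 10.40 in normoxia (difference -0.28, SE 0.089, adjusted p = 0.111). A second probe set of Hsph1 differed by -0.38 (SE 0.12), also without passing. Hspe1, the lid of the mitochondrial chaperonin, stood at 11.96, 11.98 and 12.07 in hypoxia and 12.20, 12.13 and 12.13 in normoxia (difference -0.15, SE 0.052, adjusted p = 0.127). In both genes all hypoxia arrays lay below all normoxia arrays.

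Hspd1, the barrel of that chaperonin, differed by -0.08 (SE 0.051) and Dnajb1, a cochaperone of the inducible Hspa proteins, by -0.05 (SE 0.059), each with a gap of 0.01 between the groups. A dimmer probe set of Dnajb1 differed by -0.14 (SE 0.08), and there the groups overlapped. Hspb1, a small heat shock protein, was the 1 with a difference above 0. It stood at 12.33, 12.37 and 12.11 in hypoxia and 12.23, 11.96 and 11.89 in normoxia (difference 0.24, SE 0.10, adjusted p = 0.203), and the groups overlapped.

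The heat shock element, TTC, GAA and TTC with any 2 bases between neighbours, was matched in the windows of Hsph1, Hspd1, Hspe1 and Hspa8 and in 0.798% of all windows. In Hsph1 the matched bases, at -36 to -24, read as follows.
Hsph1: TTCTGGAAAGTTC
Hspd1 and Hspe1 lie head to head and share their matches, at chr9:64084262-64084279 of GRCr8, read here from the side of Hspe1 as a pair of overlapping matches. Both are written 5′ to 3′ on the gene strand of Hspe1. The strand named is the one on which the element lies, so the minus-strand match appears as the reverse complement of the element.
Hspe1, plus strand: TTCTAGAACCTTC
Hspe1, minus strand: GAACCTTCCGGAA
The 3 measured genes with the element had differences from -0.28 to -0.08, and none passed.

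Probe sets shared with a second gene cannot be assigned to either. The one annotated to Hspa8, the constitutive cytosolic chaperone, and to Haus8l2 stood at 13.81, 13.85 and 13.81 in hypoxia and 14.02, 13.99 and 14.05 in normoxia. It fell by 0.19 on the log2 scale (SE 0.039, limma adjusted p = 0.0337), a call lost without any 1 array (0.0584 to 0.117) and without a variance trend (0.124). The one annotated to Hspa1b and Hspa1a, the stress-induced pair, ranged from 8.35 to 8.68 in hypoxia and from 8.33 to 8.79 in normoxia (difference 0.007, 95% interval -0.31 to 0.33). The brighter one annotated to Hsp90aa1, the inducible cytosolic Hsp90, and to its pseudogene Hsp90aa1-ps17 differed by 0.04 (95% interval -0.08 to 0.17).

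Further genes of these pathways, 106 on 5 lists, were examined in the same fit, of which 98 were measured. Among them 5 rose, 1 fell and 92 did not pass, beside 4.48% of all genes called higher and 2.23% lower. The share called lay near this background and is not a result about these lists. The largest rise was that of Cryab, a small heat shock protein abundant in muscle and lens, at 13.89, 13.72 and 13.93 in hypoxia and 12.97, 12.57 and 12.51 in normoxia. The groups lay 0.75 apart, and the rise was 1.16 (SE 0.12), which is 2.24-fold (limma adjusted p = 0.0047). Hspb8, a small heat shock protein that works with Bag3 in clearing misfolded protein, averaged 12.26 ± 0.05 in hypoxia and 11.78 ± 0.08 in normoxia (SD, n = 3 each), a rise of 0.48 (SE 0.057, limma adjusted p = 0.00713). Both kept their calls under all 16 alternatives. A second probe set of Hspb8 rose by 0.45 (adjusted p = 0.0498).

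Hsp90ab1, the constitutive cytosolic Hsp90, stood at 12.83, 12.73 and 12.86 in hypoxia and 13.02, 13.00 and 13.16 in normoxia. It fell by 0.25 on the log2 scale (SE 0.06, limma adjusted p = 0.0494), and a second probe set fell by 0.38 (adjusted p = 0.0368). The call of the first was lost without any 1 array (0.0579 to 0.145), with no filter (0.0564) and without a variance trend (0.104). Of the 27 other heat shock genes and cochaperones measured, Cryab and Hspb8 rose, Hsp90ab1 fell and 24 did not pass, beside 6.7% of all genes called. The median difference of the 27 was -0.034. The heat shock transcription factor Hsf1 differed by 0.15 (95% interval -0.05 to 0.35).

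Of 25 other ER folding and translocation genes measured, 1 rose and 0 fell, beside 6.7% of all genes called in either direction. At an unadjusted p under 0.05 (limma) the count was 9, beside 24.7% of all genes. The median difference of the 25 was 0.088. The gene that rose was Erp29, a redox-inactive relative of the isomerases, at 11.16, 11.17 and 11.11 in hypoxia and 10.93, 10.93 and 10.88 in normoxia (rise 0.23, SE 0.051, adjusted p = 0.0412). The call of Erp29 was lost without any 1 array (0.0536 to 0.135), with no filter (0.0553), with quantile normalization (0.0537) and without a variance trend (0.0805). For Erp44, an oxidoreductase that retains proteins in the ER, the brightest probe set differed by -0.007 and another was called lower by 0.28 (SE 0.067, adjusted p = 0.049). The dimmest probe set of Erp44 differed the other way, by 0.18 (SE 0.1), without passing.

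The other PERK-ATF4 and amino acid response genes had 2 rises and 0 falls among 23 measured, beside 6.7% of all genes called. At an unadjusted p under 0.05 (limma) the count was 8, beside 24.7% of all genes. Aars1, the alanyl-tRNA synthetase, stood at 10.76, 10.88 and 10.73 in hypoxia and 10.50, 10.40 and 10.51 in normoxia (rise 0.32, SE 0.065, adjusted p = 0.0346). Slc3a2, the heavy chain of amino acid transporters, stood at 10.96, 11.03 and 10.93 in hypoxia and 10.55, 10.52 and 10.78 in normoxia (rise 0.35, SE 0.079, adjusted p = 0.0429). Without a variance trend both calls were lost (0.0578 and 0.0653). The call of Aars1 held without hypoxia replicate 3 and that of Slc3a2 without normoxia replicate 3, and each was lost without any other 1 array (up to 0.103 and 0.122).

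Further genes of that list stood on both sides of 0. Atf5, an ATF4-related factor, differed by 0.53 (SE 0.13, adjusted p = 0.0512), while Psat1 and Phgdh, enzymes of serine synthesis, differed by -0.35 (SE 0.11) and -0.47 (SE 0.17), and none of these passed. These 3, like Eif2ak3, Hsf1, Erp44 and Marchf6, were named after their values were seen. Eif2ak3, which encodes PERK, differed by -0.05 (95% interval -0.22 to 0.11).

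Neither remaining list had a call. Of 15 other ERAD genes 2 had an unadjusted p under 0.05 by limma, beside 24.7% of all genes. Ubxn4, which tethers the degradation machinery to the ER, came closest to a call (0.17, SE 0.05, adjusted p = 0.0878). A dim probe set of Marchf6, an ER ubiquitin ligase, was called lower by 0.39 (adjusted p = 0.042), but its brightest differed by 0.006. Of 8 other sensors and ER membrane transcription factors 0 had an unadjusted p under 0.05 by limma, and the smallest was that of Creb3 (0.13, SE 0.076).

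**Figure D4:**
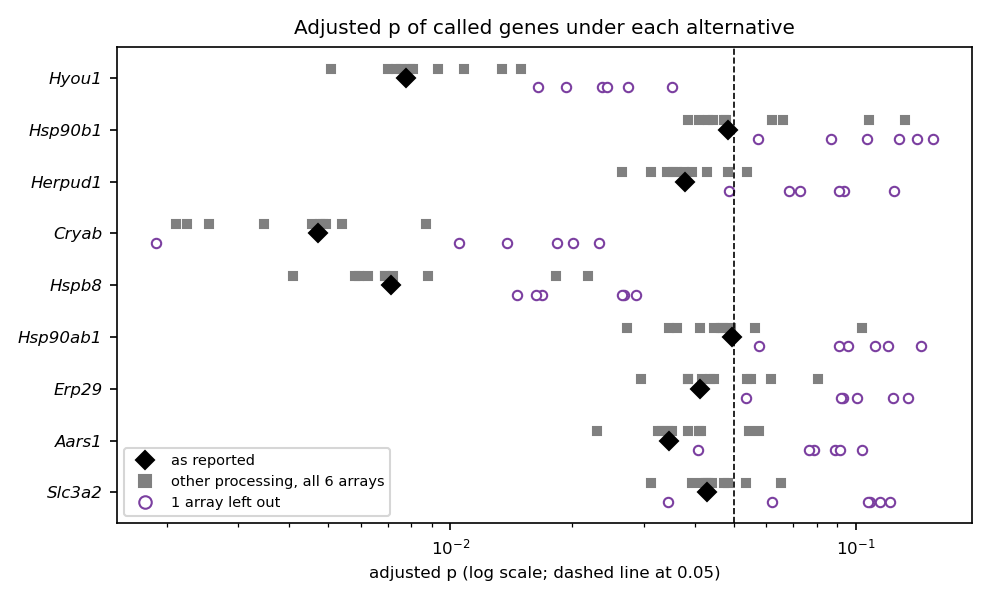
Adjusted p on a log axis of the 3 listed genes and 6 further pathway genes called with all 6 arrays. Diamonds are the values reported, squares other processing and open circles fits with 1 array left out. Hyou1, Cryab and Hspb8 stay left of the dashed line at 0.05 throughout, and the other 6 genes cross it when arrays are left out.

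Markers of several other cells moved with the groups. The counts called below stand beside 4.48% of all genes called higher and 2.23% lower. Signals summed on the linear scale were 13860 to 18230 in hypoxia and 2600 to 6600 in normoxia for 10 trophoblast markers (8 called higher, 0 lower). The 9 endothelial markers summed to 8035 to 8775 in hypoxia and 6897 to 7245 in normoxia (4 higher, 0 lower), and 5 erythroid markers to 18100 to 22490 in hypoxia and 7536 to 10390 in normoxia (4 higher, 0 lower). Sums were lower for 9 uterine natural killer markers (36720 to 40660 in hypoxia, 44880 to 51320 in normoxia, 3 called lower). The same held for 8 macrophage markers (4838 to 5206 in hypoxia, 5700 to 5886 in normoxia, 1 lower) and 7 epithelial markers (533.9 to 829.3 in hypoxia, 905.6 to 1245 in normoxia, 2 lower), with Cldn4 at bacterial control level on all arrays. The part of these cells in the differences of Hyou1, Hsp90b1, Herpud1 and Cryab was not tested.

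Sums overlapped between the groups for 10 decidual stroma markers (73890 to 90750 in hypoxia, 71550 to 74520 in normoxia, 2 higher) and 6 smooth muscle markers (13850 to 20300 in hypoxia, 14440 to 20620 in normoxia, 0 called). Taken singly, 9 of the 10 decidual markers had differences above 0 and 1 below, with a median difference of 0.112 beside 0.0082 for all genes. The 3 neutrophil markers did not move alike, and their sums (956.1 to 1277 in hypoxia, 887.0 to 1863 in normoxia) overlapped. S100a8 rose by 1.38 (SE 0.15, limma adjusted p = 0.00581) and S100a9 by 1.67 (SE 0.15, adjusted p = 0.00392), while Lcn2 differed by -1.93 (SE 0.65, adjusted p = 0.125) without passing, though lower on every hypoxia array.

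Plasma cells carry abundant ER chaperones. The sums of the 5 B and plasma cell markers on the array were higher in hypoxia (750.2 to 847.4) than in normoxia (721.6 to 733.3) without overlap. Only Prdm1 of the 5 passed the filter on dim probe sets, at 9.35, 9.48 and 9.55 in hypoxia and 9.30, 9.30 and 9.28 in normoxia (difference 0.17, SE 0.07, adjusted p = 0.197). Cd79b, Ms4a1 and Mzb1 lay at bacterial control level on all arrays and Jchain on all hypoxia arrays. S100a8, S100a9, Lcn2 and Prdm1 were named after their values were seen, and the part of these cells in the differences above was not tested.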

How the data were processed

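Total RNA of rat metrial gland was labelled and hybridised to 6 Affymetrix arrays, 3 in hypoxia and 3 in normoxia. The authors deposited 1 log2 expression value per probe set and array, and these log2 values were used as deposited. MAS5 and Affymetrix Expression Console are the tools listed in the submitters' processing notes, without role or version. How background, summarization and scaling were handled is not given in the sources used here. Of 31099 probe sets, 57 controls were set aside. GEO's platform annotation gave 20826 probe sets 1 gene symbol, 436 several and 9780 none. The lowest 40% by mean over all arrays (12417 probe sets, mean up to 5.74) were left out and 18625 tested.

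Groups were compared with limma 3.58.1 in R 4.3.3 (lmFit and eBayes with a variance trend), with Benjamini-Hochberg adjustment over all probe sets tested and a threshold of 0.05. The fit was tested on simulated data. A gene took its brightest probe set with a single symbol. Values on every array were given for listed genes past the threshold and for the 2 with the smallest p in a branch with fewer calls. Array values of Canx, Calr, Dnajb11, Pdia4, Hspa5, Atf4, Hspb1 and a dimmer probe set of Pdia3 were given outside this rule. Marker lists gave counts, sums and genes at background level, and the averages of Prf1 and Gzmb were given outside that rule. Pathway lists gave up to 4 called genes, or the 1 with the smallest p, and exceptions are marked in the text. The members and lists were chosen with earlier results of these data known. The number of arrays limits the precision. Alternatives changed the filter, normalization, offset, variance trend, weights, probe set rule, replicate block and the arrays included.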

Additional observations from a re-analysis of the deposited data

How the results depend on the processing

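Under the 16 alternatives fixed at the start, 26 of the 32 genes kept 1 sign, 25 of the 29 not called were called under none, and Canx, Pdia4, Dnajb11 and Ddit3 were called under at least 1. The count of listed genes called higher, 2 with all arrays, was 1 with no filter, 1 with quantile normalization, 1 without a variance trend, 5 with array weights, and 1 to 2 with 1 array left out. The count called lower, 1, was 0 without a variance trend, 0 to 1 with 1 array left out, and 2 with probe sets of several symbols counted, an alternative chosen after seeing the data. The cause was not tested. The ER chaperone median difference, 0.162, was 0.143 with quantile normalization and 0.139 to 0.171 with 1 array left out. The medians with 1 array left out were 0.054 to 0.116 for the sensors, -0.061 to 0.055 for PERK-ATF4, -0.126 to -0.06 for ERAD and -0.112 to -0.054 for heat shock, so that of PERK-ATF4 has no settled sign.

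Over all probe sets, 1116 were called, 749 higher and 367 lower (67.1% higher), and with quantile normalization 1169, 648 higher and 521 lower (55.4% higher). With 1 array left out, which also leaves fewer samples, the counts were 267 to 1029, 223 to 683 higher and 44 to 346 lower, and without a variance trend 241 were lower. Correlations of deviations between arrays of the same replicate number were 0.012, 0.071 and 0.07. Between arrays of different numbers they ran from -0.137 (hypoxia replicate 2, normoxia replicate 3) to 0.081 (hypoxia replicate 1, normoxia replicate 3). These values do not settle whether the numbers pair the samples, and the main fit treated the samples as unpaired. With the replicate number as a block, 1317 probe sets were called and 1 listed gene was higher, Hsp90b1 being lost (adjusted p = 0.0662). The block also ended the calls of Erp29 (0.0619), Aars1 (0.0545), Slc3a2 (0.0536) and the probe set shared by Hspa8 and Haus8l2 (0.0568). With 3 arrays a group, small differences near the threshold cannot be settled.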
